A study of Mus musculus with 60 samples.

Results

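Lrrn4, Upk3b, Upk1b, Msln, Wt1 and Muc16 are 6 genes used as markers of the mesothelium. Each was looked for on the arrays through the RefSeq accession of the probes. Of the 6, 5 had a probe, 1 probe each, among 20018 genes with a symbol and 55681 probes in all, and no accession mapped to Muc16, so no value is given for it. Lrrn4 and Upk3b were chosen by the measured log2 ratios of D3 and D0 lung, since they stood among the largest increases of that tissue at the highest dose once slide was in the model. The other 4 were added to them as known markers of the same cell type, with results of these data known. The change in lung at the highest dose is therefore given below as a description, with its error and with no test.

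The mesothelium is the single sheet of flat cells that covers the lungs, the abdominal organs and the walls of the cavities that hold them. Its cells make the fluid and the glycoproteins that let the organs slide past each other, and during development they give rise to fibroblasts and smooth muscle of the underlying organ. They carry keratins like an epithelium but descend from mesoderm. A piece of lung or forestomach holds mesothelium only where it includes the outer surface.

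The values come from 20 male Muta Mouse animals, a transgenic strain that carries a bacterial reporter for mutation tests, about 10 weeks old at the start. They were given benzo(ghi)perylene (BghiP), a polycyclic aromatic hydrocarbon, by gavage in olive oil for 28 days, and tissues were collected 72 hours after the last dose. D0 (mice 1 to 5) received the oil alone, D1 (mice 6 to 10) 6.25, D2 (mice 11 to 15) 12.5 and D3 (mice 16 to 20) 25 mg/kg-bw/day. Lung, liver and forestomach of every mouse were hybridized, 1 tissue per array, which gave 60 arrays in 12 groups of 5 mice. The RNA was taken from a slice of the right lung lobe, the left liver lobe or the forestomach, so the amount of surface in a sample was not set.

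Every value is a log2 ratio of tissue RNA (Cy5) to a common reference RNA pooled from mouse cell lines (Cy3). A ratio of 0 means as much signal as the reference, and the ratios of one gene cannot be set against those of another. Between 34.9% and 58.6% of probes were well above background on the lung arrays, 36.3% to 48.3% on the liver arrays and 21.3% to 53.3% on the forestomach arrays. Lung and forestomach arrays shared 5 slides, each with 1 array of every dose and tissue. The liver arrays lay on 3 others, over which the doses were spread unevenly. On every slide a dose had its own column, so that dose and position on the slide cannot be told apart. Lung and forestomach lay in separate rows and liver on separate slides, so tissue and placement cannot be told apart either.

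All 5 measured markers had their lowest mean ratio in liver, and in vehicle lung all were well above background in every mouse except Lrrn4 in mouse 3. In vehicle forestomach Msln was well above background in every mouse, and the other markers were not in mice 2 and 3. Msln encodes mesothelin, a glycoprotein anchored to the mesothelial surface, and its vehicle ratios were -0.40, -0.56, 0.49, 0.52 and -1.49 in lung (mice 1 to 5). In forestomach they were -1.87, -2.27, -1.72, -1.35 and -2.24, and in liver -4.93, -4.75, -5.13, -5.18 and -4.53. In each of the 5 mice lung was above forestomach and forestomach above liver, and the groups of lung and forestomach overlapped only in that lung mouse 5 lay below forestomach mouse 4. Lung exceeded liver by 4.61 ± 0.30 (log2, SE, n = 5; 24.5-fold) and forestomach by 1.603 ± 0.30, with adjusted p-values of 2.0e-19 and 1.3e-05 in limma.

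Upk1b encodes a tetraspanin first known from the plaques of the bladder lining and also made by mesothelium. Its vehicle ratios were 1.75, 1.76, 1.22, 2.33 and 2.06 in lung and 0.77, -0.05, -0.15, 1.21 and 0.75 in forestomach. In liver the probe was not well above background on any of the 20 arrays, where ratios ran from -0.79 to -0.35. Lung was the highest tissue in all 5 mice, by 1.32 ± 0.27 over forestomach (adjusted p = 3.8e-05, limma) and by at least 4.31-fold over liver. A fold written as "at least" sets the mean Cy5 signal of the brighter tissue against that of the same probe in liver, where it was not well above background. A liver signal under the lowest that counted as well above background on its array would have been raised to it, and none was. No test is given for such a fold, since the probe entered the fit through the tissues where it was bright.

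Upk3b encodes a uroplakin, a membrane glycoprotein that partners with Upk1b. Its vehicle ratios were 0.77, 0.31, 0.43, 1.55 and -0.16 in lung and 0.68, -0.10, -0.10, 0.58 and 0.55 in forestomach, which overlapped. The difference between these tissues was 0.26 ± 0.24 (adjusted p = 0.386, limma). Here too the vehicle lung values entered the contrast that chose the gene, so the p-value is no independent test. In liver only 4 of 20 arrays, 1 of them from a vehicle mouse, had Upk3b well above background, so that the vehicle liver level rests on 1 measured array of 5. The liver ratios of all doses lay between -1.54 and -1.06, below every vehicle lung value, and no size of the difference is given.

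Lrrn4 encodes a transmembrane protein with leucine-rich repeats that is used to isolate mesothelial cells. Vehicle ratios were 0.55, 0.04, -0.29, 1.37 and -1.03 in lung and 0.18, -0.19, 0.06, 0.59 and 0.30 in forestomach, with a difference of -0.06 ± 0.27 (adjusted p = 0.862, limma). These vehicle lung values entered the contrast that chose Lrrn4, so the p-value is no independent test. The range of the lung values was wider and enclosed all forestomach values. No liver array was well above background for Lrrn4, and by mean signal lung was at least 2.12-fold and forestomach at least 2.12-fold above liver. Lung was above liver in 4 of 5 mice, and in mouse 5 its ratio of -1.03 lay below that of liver, -0.97. Of the vehicle arrays, 4 of 5 in lung and 3 of 5 in forestomach were well above background.

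Wt1 encodes a zinc finger transcription factor of the embryonic body cavity lining that mesothelium keeps in adults. Its ratios had another order, with forestomach highest. They were -1.77, -2.18, -1.17, -1.31 and -3.45 in vehicle lung, -0.29, -1.48, -0.69, -1.25 and -1.72 in forestomach and -2.72, -2.43, -2.53, -2.68 and -2.44 in liver. Lung was below forestomach in all 5 mice, by -0.89 ± 0.34 (adjusted p = 0.0263, limma), and was not separated from liver at 0.58 ± 0.34 (adjusted p = 0.135). Without D0 mouse 5 the first difference was -0.68 (adjusted p = 0.110) and the second 0.98 (adjusted p = 0.0147), and without D0 mouse 1 the first was -0.75 (adjusted p = 0.108), so these calls rested on single mice.

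Msln and Wt1 were the members tested in both tissues where liver was compared, and 1 of 2, Msln, was called higher in vehicle lung than in liver, against 44.4% of the 33255 probes tested called in either direction and 25.4% called higher. For forestomach and liver 2 of 2 were called higher in forestomach, against 39.2% called in either direction and 21% called higher. Lrrn4, Upk3b and Upk1b are not counted there, since they passed the filter on dim probes only through the other tissues. Between lung and forestomach 3 of 5 were called, against 33.3% of probes, and 2 of these, Msln and Upk1b, were higher in lung, against 18.8% of probes called higher. A call stands for an adjusted p of 0.05 or less with at least 1.5-fold. The vehicle lung arrays also entered the contrast that chose the genes, whereas the difference between forestomach and liver did not use them. Mouse as a block, which pairs the tissues of one animal, changed none of these calls.

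**Figure D1:**
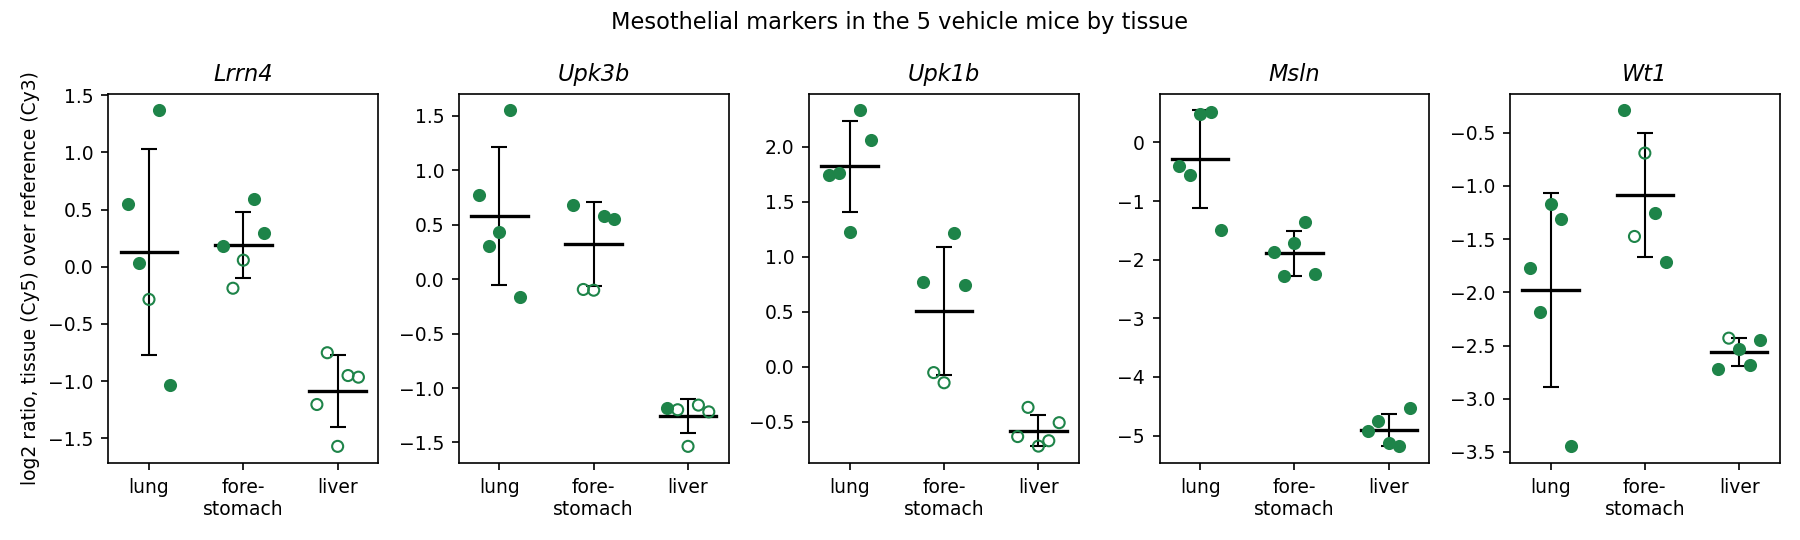
Log2 ratio of tissue to reference signal of the 5 markers in the 5 vehicle mice by tissue, 1 panel per gene with its own axis. Each point is 1 mouse, an open point was not well above background, and the thick line and bars give the mean and SD. Msln in liver lay apart from the other tissues, the lung value of mouse 5 lay within the forestomach range, and Upk1b was higher in lung than in forestomach and liver in every mouse.

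In lung all 5 markers had higher means in each BghiP group than in vehicle mice, and no group was free of overlap with vehicle mice. At D3 the cell surface markers Lrrn4 and Upk3b differed most and Wt1 came next, and Upk1b and Msln differed by less than 0.5 on the log2 scale at every dose. The spread was widest in vehicle mice for 4 of the 5 markers, Upk1b being the exception, and in Lrrn4, Upk3b, Msln and Wt1 the lowest of all 20 lung values belonged to the same animal, D0 mouse 5. In whole tissue, fewer cells of a type and less RNA per cell cannot be told apart.

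Lrrn4 ratios in lung were 0.62, 0.86, 0.81, 1.62 and 0.88 in D1, 0.95, 1.16, 0.75, 1.58 and 1.27 in D2, and 1.12, 1.18, 0.73, 1.99 and 1.83 in D3. All 15 treated animals lay above the vehicle mean of 0.13 ± 0.90 (SD, n = 5), but only 4 of them exceeded D0 mouse 4 at 1.37. At D3 the mean was higher by 1.24 ± 0.34 (log2, SE). At D1 it was higher by 0.83 and at D2 by 1.02, with adjusted p-values of 0.9999 and 0.9997 (limma), and with slide as a block of 0.406 and 0.139. The vehicle arrays were the baseline of the contrast that chose Lrrn4, so these p-values are no independent test.

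Upk3b followed the same animals. Its ratios were 1.14, 1.34, 0.99, 1.77 and 1.22 in D1, 1.19, 1.45, 1.17, 1.43 and 1.68 in D2, and 1.29, 1.498, 1.28, 2.12 and 1.74 in D3, all above the vehicle mean of 0.58 ± 0.64. The difference from D0 was 0.71 ± 0.24 at D1 and 0.81 ± 0.24 at D2 (adjusted p = 0.402 and 0.131 with the slide block), and 1.01 ± 0.24 at D3. As for Lrrn4, the p-values draw on vehicle arrays that chose the gene and are no independent test.

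The start regions of these 2 genes are shown because they moved together and because RefSeq tables held them, in build GRCm38.p6, for 3 of the 6 markers. Each sequence reads 5′ to 3′ along the gene, from 250 bases before its annotated start to 50 after it, and capitals mark GGAATG, the core motif of TEAD transcription factors, or its reverse complement. The Lrrn4 region lies at chr2:132880813-132881112 on the minus strand and the Upk3b region at chr5:136038246-136038545 on the plus strand.
Lrrn4: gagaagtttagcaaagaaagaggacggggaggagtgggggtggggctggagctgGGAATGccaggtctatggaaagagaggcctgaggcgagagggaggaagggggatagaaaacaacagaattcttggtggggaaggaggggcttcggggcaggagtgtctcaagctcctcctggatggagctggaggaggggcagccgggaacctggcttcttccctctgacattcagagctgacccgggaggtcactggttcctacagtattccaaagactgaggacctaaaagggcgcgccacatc
Upk3b: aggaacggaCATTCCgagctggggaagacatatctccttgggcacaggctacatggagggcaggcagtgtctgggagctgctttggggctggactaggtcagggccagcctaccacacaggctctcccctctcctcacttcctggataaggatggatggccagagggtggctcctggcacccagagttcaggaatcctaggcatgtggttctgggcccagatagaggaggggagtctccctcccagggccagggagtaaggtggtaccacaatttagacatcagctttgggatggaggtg

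The match begins 196 bases before the start of Lrrn4 on the gene's own strand and 241 bases before that of Upk3b on the opposite strand. Of 32851 start regions of this length, 14.7% held the TEAD motif on either strand. The motif of WT1 and EGR factors, GCGNGGGCG, was in 5.55% of regions and was not found in those of Lrrn4, Upk3b or Muc16. The motif of GATA factors, AGATAA, was in 11.2% and was not found in these windows either. The Muc16 region did not hold the TEAD motif, and no match overlapped another.

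Wt1 was more scattered in lung. Its ratios were -1.84, -1.13, 0.06, -1.19 and -2.02 in D1, -1.76, -1.38, -1.34, -1.06 and -1.41 in D2, and -1.62, -1.36, -1.25, -1.12 and -1.01 in D3. In D2 and D3 all 10 animals lay above the vehicle mean of -1.98 ± 0.91, a mean pulled down by D0 mouse 5 at -3.45. Differences from D0 were 0.75 ± 0.37, 0.59 ± 0.37 and 0.71 ± 0.37 at D1, D2 and D3, and without D0 mouse 5 they were 0.39, 0.22 and 0.34.

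For Upk1b, whose probe was printed as 10 spots on each array, the ratios were 1.87, 2.40, 1.79, 2.40 and 2.45 in D1, 2.13, 2.05, 1.75, 2.54 and 2.34 in D2, and 2.18, 2.33, 1.4997, 2.54 and 2.94 in D3. The means exceeded the vehicle mean of 1.82 ± 0.41 by 0.36 ± 0.24, 0.34 ± 0.24 and 0.47 ± 0.24. Set against the vehicle array of its own slide, Upk1b was higher on 5 of 5 slides at each dose, by 0.07 to 0.65 at D1, 0.21 to 0.52 at D2 and 0.21 to 0.88 at D3.

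Msln had the smallest difference at D3. Its ratios were -0.17, 1.09, 0.55, 0.04 and -0.74 in D1, -0.15, 0.47, 0.48, 0.13 and -0.23 in D2, and -0.05, 0.17, -0.29, 0.41 and 0.30 in D3, against a vehicle mean of -0.29 ± 0.84. The differences were 0.44, 0.43 and 0.40 with an SE of 0.34 each, and 0.14, 0.13 and 0.10 without D0 mouse 5. Within slides Msln was higher on 4, 3 and 3 of 5 slides.

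**Figure D2:**
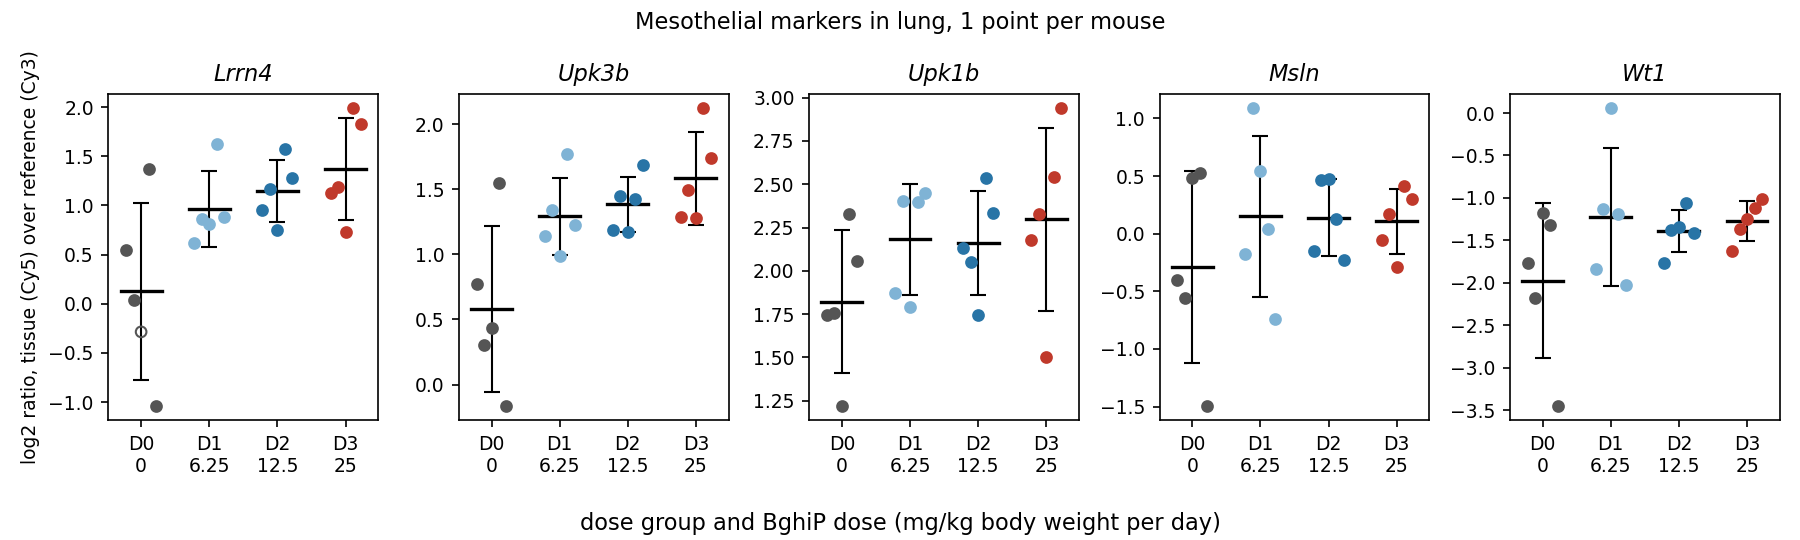
Log2 ratio of lung to reference signal of the 5 markers by dose group, 1 panel per gene with its own axis. Each point is 1 mouse, an open point was not well above background, and the thick line and bars give the mean and SD of 5 mice. Every treated mean lay above the vehicle mean, D0 mouse 5 was lowest for Lrrn4, Upk3b, Msln and Wt1, and each treated group overlapped the vehicle group.

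Of the 5 markers, 0 were called in lung at D1 and 0 at D2, the same as the 0% of 31022 probes called at either dose. With the slide block 0 were called again, as over all probes (0%), and adjusted p-values of the 5 ran from 0.402 to 0.640 at D1 and from 0.131 to 0.563 at D2. At an unadjusted p under 0.05, Lrrn4 and Upk3b passed at both doses, against 688 probes at D1 and 1055 at D2. By size alone 3 of 5 (Lrrn4, Upk3b and Wt1) were at least 1.5-fold higher at D1 and again at D2, against 0.11% and 0.21% of probes, and 3 of 5 at D3, where the contrast had chosen Lrrn4 and Upk3b and 0.28% of probes reached that size. Groups without overlap numbered 0 of 5 at every dose, against 0.174%, 0.22% and 0.439% of probes higher without overlap at D1, D2 and D3. The 3 comparisons share the same vehicle arrays, and those arrays were the baseline of the contrast that chose Lrrn4 and Upk3b, so the values at D1 and D2 are a description too, and nothing is read from these counts against the share of probes. Without D0 mouse 5, 0 of the 3 genes reached 1.5-fold at D1 (Lrrn4 0.54, Upk3b 0.53 and Wt1 0.39 on the log2 scale), and at D2 Wt1 did not (0.22) while Lrrn4 and Upk3b were at 0.73 and 0.62.

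Among treated animals the doses lay close together. Mean D3 minus D1 was 0.41 for Lrrn4, 0.29 for Upk3b, 0.11 for Upk1b, -0.04 for Msln and -0.05 for Wt1, each smaller than the SD over the 15 treated animals (0.42, 0.30, 0.37, 0.44 and 0.48). The D3 means were the highest for Lrrn4, Upk3b and Upk1b and were not for Msln and Wt1. In the reference channel the markers differed from D0 by -0.15 to -0.0010 at D3, so that nearly all of the difference in the ratios was in the tissue channel.

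The median difference of the 5 markers at D3 was 0.71, against 0.01 for all probes. Leaving out D0 mouse 5 gave a median of 0.53 and changed single markers more, to 0.95 for Lrrn4, 0.82 for Upk3b, 0.34 for Wt1 and 0.10 for Msln. Leaving out D0 mouse 4, the highest vehicle mouse for Lrrn4, Upk3b, Upk1b and Msln, gave 1.55 for Lrrn4 and 1.25 for Upk3b. On the slide of mouse 5 the D3 animal exceeded the vehicle animal by 2.86 for Lrrn4, 1.90 for Upk3b, 1.80 for Msln and 2.44 for Wt1, and on the other slides by 0.57 to 1.15 for Lrrn4 and by 0.52 to 1.19 for Upk3b. For Msln and Wt1 the difference on those slides ran from -0.77 to 0.73 and from -0.08 to 0.82.

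D0 mouse 5 also stood apart in other cell type lists. Relative to the vehicle mean its lung was the highest of the 5 vehicle mice for genes of airway epithelium (0.81), B cells (1.04), endothelium (0.52), smooth muscle (0.46) and alveolar type 1 cells (0.41), while the 5 markers averaged -0.87. Its other mesothelial genes, by contrast, averaged -0.02. For transcription factors of the body cavity lining it was again the highest vehicle mouse (0.15). D0 mouse 1 was high for skeletal muscle genes (4.85) and keratinocyte genes (2.82), and its markers averaged 0.13. D0 mouse 4, whose markers averaged 0.84, was the highest vehicle mouse for the other mesothelial genes (0.39) and the lowest for heart muscle genes (-2.43). The part of these differences in the marker values was not tested.

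Slides were compared within doses. In lung 1 of the 3 markers that the D3 contrast had not chosen, Upk1b, passed a limma F test for slide at an adjusted p of 0.05 or less, against 56.5% of probes. Its slide means were 1.98, 2.13, 1.56, 2.45 and 2.44 on slides 1 to 5 (adjusted p = 7.1e-05, and 0.292 with the processed signals). Msln (adjusted p = 0.0886) and Wt1 (0.0695) did not pass, and both passed without D3 mouse 18 (0.0311 and 0.0429) and without D3 mouse 20 (0.0159 and 0.0163). Wt1 passed also without D0 mouse 1 (0.0418), D2 mouse 13 (0.0489) or D2 mouse 15 (0.0486), and with the deposited log2 ratios (0.0426). Lrrn4 and Upk3b were chosen with slide in the model and are given with no test. Their slide means were 0.81, 0.81, 0.50, 1.64 and 0.74 for Lrrn4 and 1.10, 1.15, 0.97, 1.72 and 1.12 for Upk3b. Slide 4 was the highest for Upk1b, Lrrn4 and Upk3b and slide 3 the lowest. In forestomach 0 of 5 passed, against 37.4% of probes.

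Liver allowed dose comparisons for Msln and Wt1 only, since Lrrn4 and Upk1b were above background on 0 and Upk3b on 4 of 20 liver arrays. Msln ratios lay between -5.34 and -4.53 over all liver arrays and differed from D0 by -0.22 ± 0.12 at D1, -0.05 ± 0.12 at D2 and -0.24 ± 0.12 at D3. Wt1 ratios were -3.08, -3.10, -3.00, -3.04 and -2.74 in D1, all below the vehicle range of -2.72 to -2.43. The Wt1 difference at D1 was -0.43 ± 0.15 (adjusted p = 0.9998, limma), and -0.34 ± 0.10 with the slide block (adjusted p = 0.9995). Of the D1 livers only that of mouse 10 was on slide 8. Over all doses Wt1 ratios lay from -2.76 to -2.31 on slide 8 and from -3.29 to -2.53 on slides 6 and 7. Its ratios were -2.87, -3.17, -2.84, -2.46 and -2.76 in D2 and -3.10, -3.29, -3.07, -2.71 and -2.31 in D3, where both groups overlapped the vehicle range. These differences were -0.26 ± 0.15 and -0.34 ± 0.15, the second with an adjusted p of 0.375 (0.118 with the slide block, limma).

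Of these 2 genes, 0 were called in liver at any dose (0% of 25893 probes at each). At D1 1 of 2, Wt1, had groups without overlap, against 0.178% of probes lower without overlap and 0.371% in either direction. At an unadjusted p under 0.05, 1 of 2 passed at D1, 0 at D2 and 1 at D3, against 785, 1075 and 3145 probes. Wt1 was well above background on 14 of 20 liver arrays and Msln on 20. For Wt1 these were 4 of 5 in each of D0, D1 and D2 and 2 of 5 in D3, so its D3 difference rests partly on signal near background. With the processed signals of the scanner software the Wt1 differences were larger, -1.002, -0.76 and -1.07 at D1, D2 and D3, and 0 were called there too.

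Forestomach gave no call either, and here the lower values were in D1. Of its 20 arrays, Msln was well above background on 20, Wt1 on 17, Upk3b on 15, Upk1b on 13 and Lrrn4 on 12. Of the 5 markers 0 were called at any dose, as with all 25070 probes (0% at each dose). At an unadjusted p under 0.05 the markers again numbered 0, against 2348, 916 and 377 probes at D1, D2 and D3 (limma). At D1 all 5 means were lower than in vehicle mice, by -0.57 to -0.39 with a median of -0.41, against -0.02 for all probes, of which 53.8% were lower. At D2 and D3, 3 of 5 were higher, with medians of 0.03 and 0.12.

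Msln, the surface glycoprotein, had the largest of these differences, -0.57 ± 0.35 at D1 (adjusted p = 0.612, limma). Its D1 ratios were -2.19, -2.38, -1.28, -3.14 and -3.32, so that mice 7, 9 and 10 lay below every vehicle value while mouse 8 lay above every one. In D2 they were -2.22, -2.39, -2.18, -1.46 and -0.68, and in D3 -1.96, -1.33, -1.79, -1.59 and -1.79.

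Wt1 showed the same animals at the ends of its range. D1 mice 9 and 10 had -2.33 and -2.62 against -1.05 to -0.58 in the other 3 mice of that dose, and D2 mouse 15 had 0.09 against -1.78 to -1.33 in the other 4. The differences from D0 were -0.41, -0.18 and -0.25 with an SE of 0.41 each.

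For Upk3b, D1 mice 9 and 10 were the lowest of the 20 forestomach arrays at -0.63 and -0.59, and D2 mouse 15 the highest at 1.69. Upk1b ran from -0.30 in D1 mouse 9 to 2.06 in D2 mouse 15, and Lrrn4 from -0.68 in D1 mouse 10 to 1.05 in D2 mouse 15. Without D2 mouse 15 all 5 markers were lower in D2 than in vehicle mice, by -0.52 to -0.17. Every treated group of every marker overlapped its vehicle group, against 0.406%, 0.531% and 0.245% of probes without overlap at D1, D2 and D3.

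Other gene lists moved in the same forestomach arrays. Genes of glandular stomach, 6 of 6 of which were higher at D1 (median 3.08), stood at 4.81 and 4.30 above the vehicle mean in D1 mice 9 and 10, but also at 4.32 and 3.47 in D1 mice 7 and 8 and at 3.93 in D0 mouse 2. Smooth muscle genes were at -0.47 and -0.32 in mice 9 and 10 and at 1.47, their highest, in D2 mouse 15, whose 5 markers averaged 1.23. They were at -0.74 in D1 mouse 7, -0.63 in D0 mouse 2 and -0.52 in D0 mouse 3, whose markers averaged -0.09, -0.43 and -0.13. Keratinocyte genes, which mark the squamous lining of the forestomach, stood at 0.71 in that animal and at 0.48, 0.49 and 0.54 in mice 5, 10 and 20, the other animals of its slide. Fibroblast genes were lower at D1 in 8 of 8 (median -0.33). The part of these lists in the marker values was not tested.

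**Figure D3:**
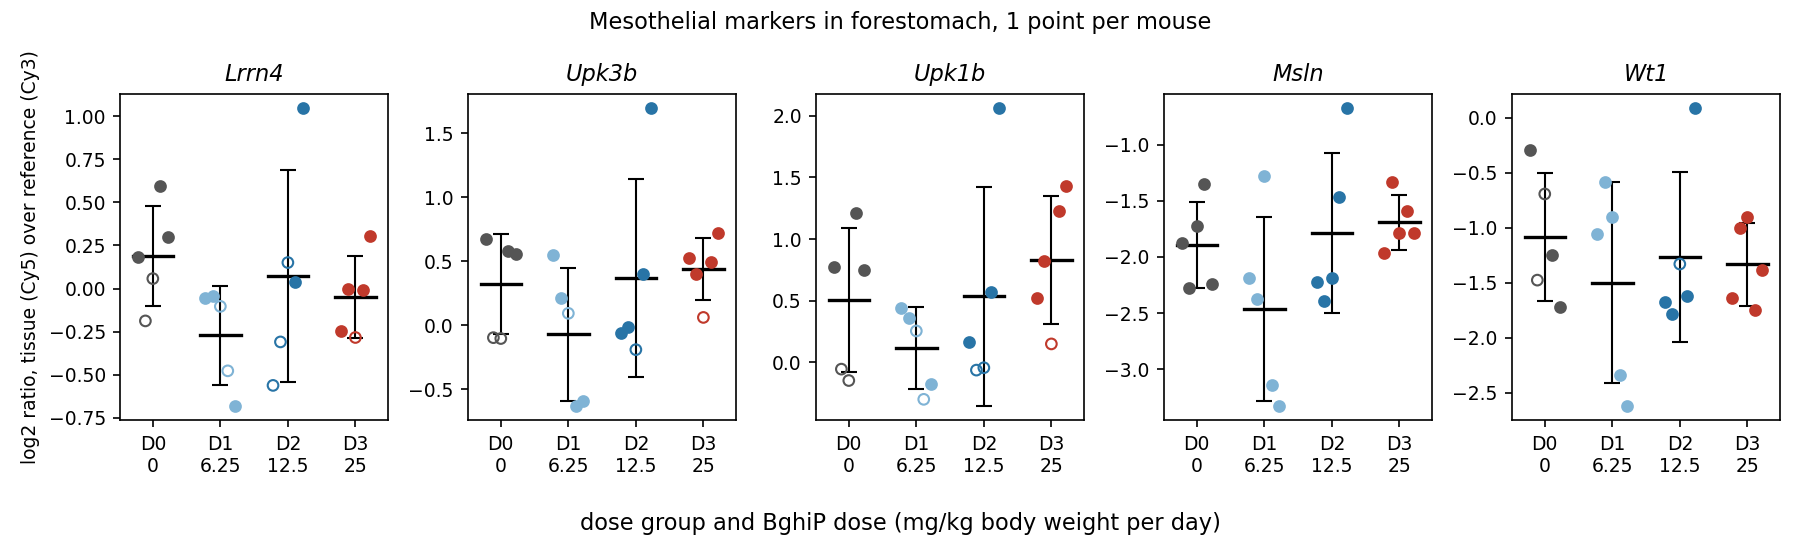
Log2 ratio of forestomach to reference signal of the 5 markers by dose group, 1 panel per gene with its own axis. Each point is 1 mouse, an open point was not well above background, and the thick line and bars give the mean and SD of 5 mice. D2 mouse 15 was the highest point for all 5 markers, and D1 mice 9 and 10 were the lowest points for Upk3b, Upk1b, Msln and Wt1.

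For Msln and Wt1 the change at D3 could be compared between liver and forestomach. Liver minus forestomach was -0.44 ± 0.43 for Msln and -0.09 ± 0.49 for Wt1, with an adjusted p of 0.9999 for both in limma, and 0 of 2 were called, as over all 33255 probes (0%, with 1416 at an unadjusted p under 0.05). The same values with mouse as a block had an adjusted p of 0.9996.

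Over the 12 groups the order of the means was set by tissue for 3 markers. For Upk1b and Msln all 4 lung groups lay above all forestomach groups and these above all liver groups, and the step from lung D0 to the next group, forestomach D3, was 0.99 and 1.40, larger than the SD of either group. Within a tissue no neighbouring means of Upk1b were separated by more than the larger SD, and for Msln this held in lung and forestomach. Upk3b kept the same order of tissues, but its largest steps lay between lung D1 and lung D0 (0.71) and between forestomach D1 and the liver groups (1.18), with lung D0 only 0.14 above forestomach D3. Lrrn4 had the 3 treated lung groups on top, a step of 0.77 down to forestomach D0, and lung D0 among the forestomach groups at 0.13. Wt1 mixed lung and forestomach groups within -1.98 to -1.08, and no neighbours among them differed by more than the larger SD.

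Mice with a high value of one marker tended to have high values of others. After each dose mean was subtracted, Lrrn4 and Upk3b correlated across the 20 lung arrays at r = 0.93 (rho = 0.87). Lung pairs with either of these genes are given with no test, since 10 of these arrays had chosen the 2 genes. Without the 2 arrays farthest from the median of Lrrn4 r was 0.86, and with slide means subtracted too it was 0.87. Msln and Wt1 correlated at r = 0.79 (rho = 0.78; permutation p = 5e-05 and 0.00014, adjusted p = 0.0002 and 0.0007), 0.78 without the 2 farthest arrays and 0.74 within slides.

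Several other pairs had lower coefficients in lung. Upk1b correlated with Lrrn4 at r = 0.59 (rho = 0.68), 0.78 without the 2 farthest arrays and 0.49 within slides. With Upk3b its r was 0.51 (rho = 0.57), 0.63 and 0.25. No relation of Upk1b was detected with Msln (r = -0.03, rho = 0, permutation p = 0.896 and 1) or with Wt1 (r = -0.16, rho = 0.03, permutation p = 0.505 and 0.902), although within slides these correlations were 0.68 and 0.55. For Lrrn4 and Msln r was 0.45 (rho = 0.28) and fell to 0.01 without the 2 farthest arrays. The r of Lrrn4 and Wt1 fell likewise from 0.49 to 0.12, that of Upk3b and Msln from 0.49 to 0.09 and that of Upk3b and Wt1 from 0.43 to 0.03, so these 4 relations rested on those arrays. With slide means subtracted as well, and all 20 arrays kept, the 4 coefficients were 0.66, 0.84, 0.68 and 0.65. All p-values were adjusted over the 20 pairs of both tissues.

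In forestomach all 10 pairs were positive, from r = 0.47 for Upk1b and Wt1 to 0.92 for Upk3b and Upk1b, with rho from 0.31 to 0.82. For Upk1b and Wt1 the adjusted permutation p was 0.0459 for r and 0.209 for rho, and for Upk3b and Upk1b 5e-05 and 0.0002. Without the 2 farthest arrays r ran from 0.27 to 0.85, and with slide means also subtracted from 0.81 to 0.95. The arrays of a tissue share slides and the same reference. In forestomach 21.3% to 27.1% of probes were well above background on slide 3 and 49.4% to 53.3% on slide 5, and the part of slide in these correlations was not tested beyond the values within slides.

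**Figure D4:**
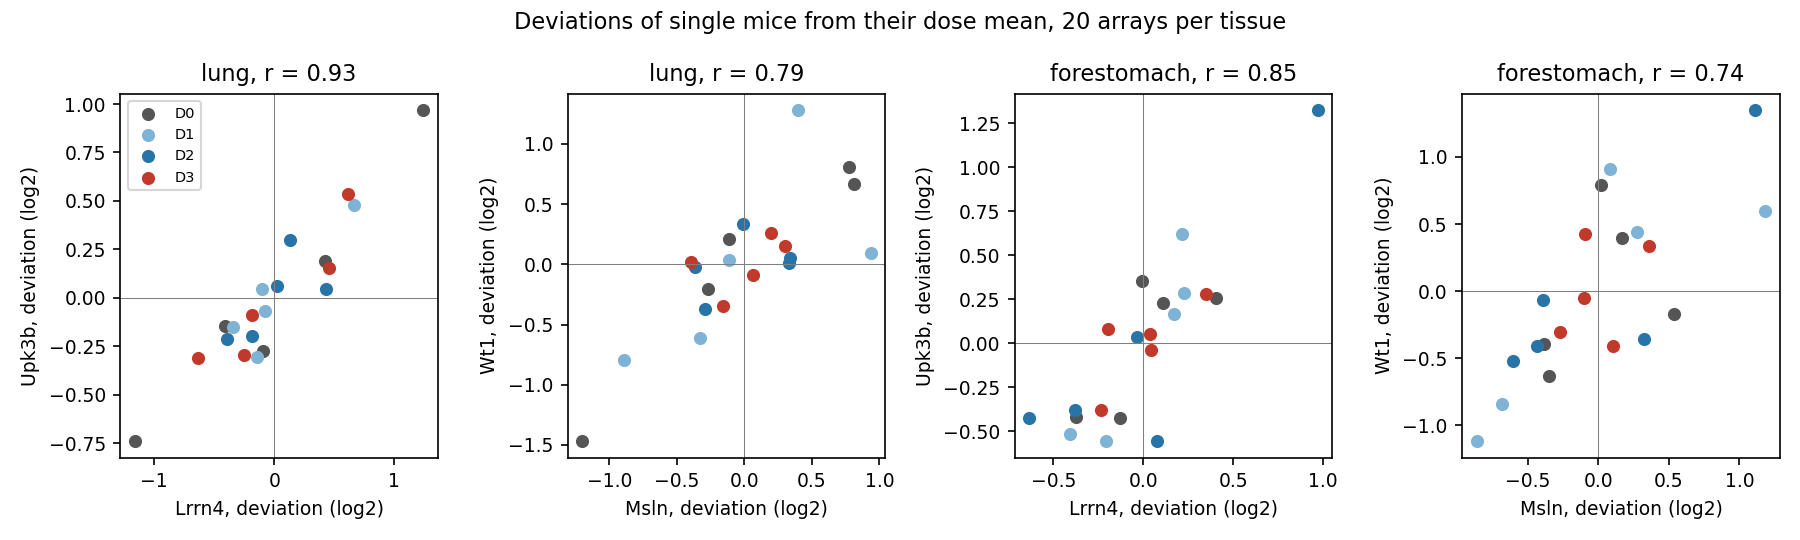
Deviations of single mice from their dose mean (log2 ratio) for Lrrn4 against Upk3b and for Msln against Wt1, in lung and in forestomach, with 20 arrays per panel and 1 point per mouse coloured by dose. The lung points of Lrrn4 and Upk3b follow a line (r = 0.93) whose ends are D0 mice 4 and 5, and D2 mouse 15 has the highest deviation of Lrrn4 and Upk3b and of Wt1 in forestomach, where D1 mouse 8 has that of Msln.

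The genes whose lung values ran most like the markers were found by correlating each gene, after subtraction of dose means, with the mean of the 5 standardized markers over the 20 lung arrays. Among the 8 highest of 14449 genes were Ctnnal1 (r = 0.86), Aldh1a2 (0.82), C2 (0.82), Chst4 (0.78), Gfpt2 (0.77), Cdyl (0.77) and Fgf9 (0.77). Aldh1a2 makes retinoic acid and Fgf9 is a growth factor secreted by lung epithelium and mesothelium in the embryo. C2 is a complement component and Ctnnal1 a relative of alpha-catenin. When slide means were subtracted too, Ctnnal1 was at rank 2 (r = 0.91), Aldh1a2 at 4 (0.89), C2 at 7 (0.85) and Fgf9 at 17 (0.80), and Cdyl, Gfpt2 and Chst4 were at 72, 114 and 204. Without subtraction of dose means Aldh1a2 and C2 ranked 1 and 2 (0.89 and 0.88) and Ctnnal1 671 (0.43). These correlations share arrays, slides and the 5 markers, and they describe likeness only.

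In forestomach the 5 most alike of 13191 genes were Bst1 (r = 0.88), Gulp1 (0.87), Fkbp14 (0.85), Dpp4 (0.85) and Lpar4 (0.85). Bst1 encodes an enzyme anchored to the cell surface that uses NAD, Gulp1 an adaptor for engulfment of dead cells, Fkbp14 a chaperone for collagen and Dpp4 a surface peptidase. None of these 5 was among the 8 of lung. Without D2 mouse 15 the r of Dpp4 was 0.68 and that of the other 4 lay between 0.76 and 0.83.

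A second list held 14 other genes made by mesothelium, of which 13 were tested in lung (Calb2, calretinin, was above background on 0 of 20 arrays). It includes keratins, which epithelium carries too, so the list is not particular to mesothelium. Lists for other lung cells are given below. At D3, 13 of 13 were higher than in vehicle mice, with a median of 0.17 against 0.01 for all probes, of which 52.6% were higher. The sign of the 3 smallest differences was not stable. Efemp1 was -0.011 with the processed signals and -0.11 without D3 mouse 20, Cdh2 was -0.0060 with the deposited ratios and -0.09 without D3 mouse 20, and Krt18 was -0.05 without D0 mouse 1. At D1 and at D2, 11 of 13 were higher, against 51.4% and 51.6% of probes, with medians of 0.16 and 0.19. With limma 0 of 13 were called at any dose (0% of probes), and with the slide block 1 of 13 was called at D3 (0.0677% of probes). That gene was Rspo1, a secreted amplifier of Wnt signalling. The D3 contrast used the lung arrays that chose Lrrn4 and Upk3b, and the list was drawn up with earlier results of these data known. Its counts and p-values in lung are therefore a description and no independent test.

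Rspo1 also had the largest difference of the list at D3, 0.75 ± 0.48 (adjusted p = 0.0154 with the slide block, 0.998 without it). Gpm6a, a membrane glycoprotein, followed with 0.63 ± 0.29 and Aldh1a2 with 0.53 ± 0.20 (adjusted p = 0.0633 and 0.200 with the slide block). The smallest were the keratin Krt18 at 0.02 ± 0.12, the cadherin Cdh2 at 0.02 ± 0.17 and Efemp1, a matrix protein, at 0.11 ± 0.43. With the processed signals of the scanner software Rspo1 was 0.28, and without D0 mouse 3 it was 0.45.

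**Figure D5:**
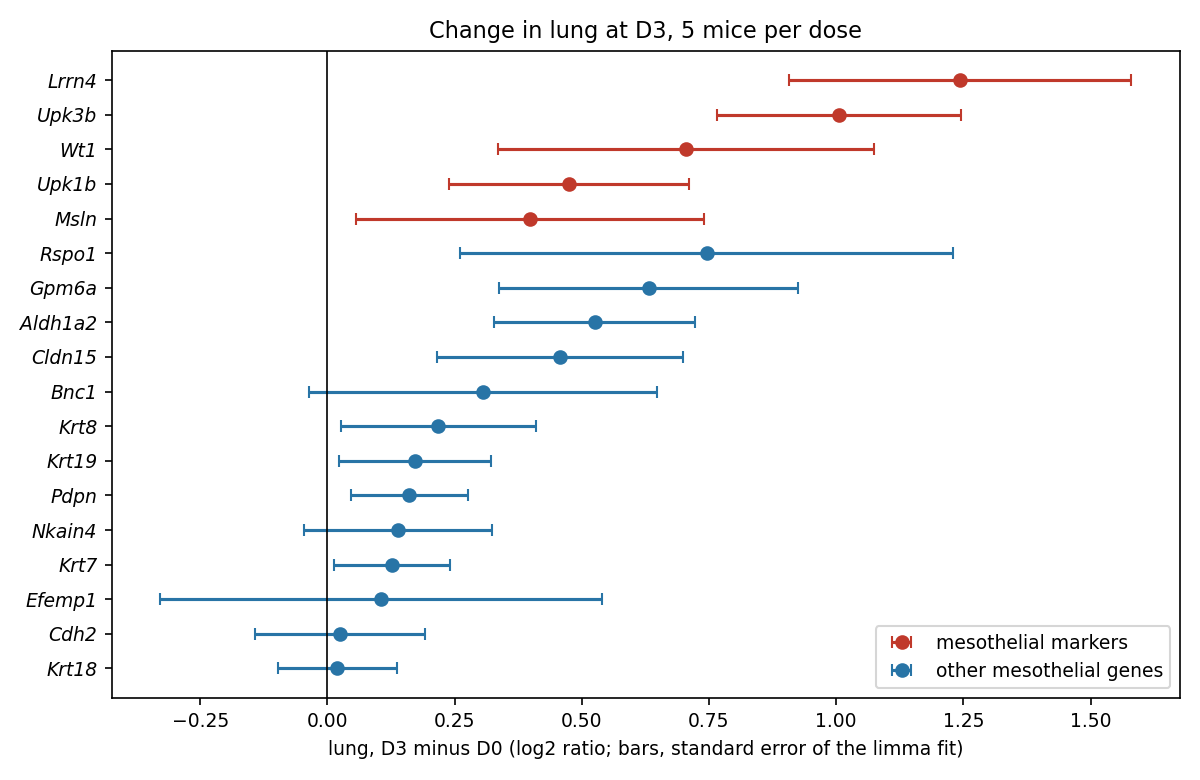
Difference in log2 ratio between D3 and D0 lung for the 5 markers (red), of which this contrast chose Lrrn4 and Upk3b, and for the 13 tested genes of the second mesothelial list (blue), 5 mice per dose. Points are differences of means and bars the standard errors of the limma fit; all 18 points lie at or above 0, from 0.02 for Krt18 to 1.24 for Lrrn4.

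Related gene families were tested beside the markers. Of 8 transcription factors of the body cavity lining 6 were tested in lung, and 5 of 6 were higher at D3 with a median of 0.15. Gata6, named here after its values were seen, differed by 0.35 ± 0.15, with an adjusted p of 0.0495 with the slide block and 0.983 without it, and was below 1.5-fold. Of the other uroplakins 3 of 4 were tested and 2 were higher (median 0.10), and of the other Lrrn genes 2 of 3 were tested and both were higher (median 0.23). Against these counts 52.6% of all probes were higher. Called genes numbered 0 in each of these lists, with limma (0% of probes) and with the slide block (0.0677%).

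Lists for other cells of the lung were counted in the same way at D3. Smooth muscle genes were higher in 7 of 8 (median 0.31), fibroblast genes in 7 of 8 (0.16), airway epithelium in 5 of 5 (0.16), alveolar type 1 cells in 4 of 5 (0.19), endothelium in 4 of 6 (0.17) and B cells in 5 of 5 (0.24). Skeletal muscle genes (5 of 5 lower, median -0.92) and keratinocyte genes (6 of 6 lower, median -0.73) went the other way, with D0 mouse 1 the high vehicle animal in both. For fat cells 6 of 7 were higher (0.22), for macrophages 4 of 5 (0.06), for alveolar type 2 cells 3 of 6 (0.07), for heart muscle 2 of 8 (-0.13), for pancreatic acinar cells 1 of 3 (-0.06) and for glandular stomach 2 of 2 (0.39), and the 1 hepatocyte gene tested was higher by 0.52. The part of these lists in the marker values was not tested.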

How the data were processed

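Tissue RNA (Cy5) of 60 samples was hybridized against universal mouse reference RNA (Cy3) on Agilent arrays of 62976 spots. The authors deposited scanner files with median, background and processed intensity values per spot, and a table of log2 ratios after LOWESS. Here log2 ratios were computed from the median intensity values by loess within each array, without background subtraction, with limma 3.58.1 in R 4.3.3. They correlated with the deposited log2 ratios at r = 0.992 to 0.999. Control spots (3671) had weight 0, spots with an outlier flag (0.460% of values) were left out, and spots of a probe were averaged. Probes were tested in a tissue where at least 5 of its 20 arrays were well above background. The number of arrays limits the precision.

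Groups came from the labels. Doses were compared with D0 by lmFit and eBayes within each tissue, and tissues in a model of all 12 groups, with Benjamini-Hochberg adjustment over all probes tested. Correlations used 100000 permutations, two-sided. Each mouse gave all 3 tissues per the labels, and deviations from group means correlated between tissues of a mouse at a median r of 0.21 for lung and forestomach, 0.05 for lung and liver and -0.0016 for liver and forestomach. The fits were tested on simulated data.

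The markers, the 20 gene lists and the tests were chosen with earlier results of these data known. Named genes were the markers, the 8 genes in lung and 5 in forestomach most like them, and the 3 largest and 3 smallest changes of the second mesothelial list, and 1 of the 8 is not reported here. Alternatives covered background correction, signal, normalization, filter, slide, variance model, test, samples and single mice. Gene symbols came from RefSeq accessions, which named 47.4% of 55681 probes. The array annotation names build mm9, and no coordinates were taken from it.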

Additional observations from a re-analysis of the deposited data

Results flagged for a closer look

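Of 48 groups of 5 mice, 3 held a mouse whose gap to its nearest neighbour was a larger share of the group's range than Dixon's critical value of 0.71, and chance gives about 1 in 20. Lrrn4 in D1 lung was 1.62 in mouse 9 against 0.62 to 0.88 in the other 4 mice. Wt1 in D1 liver was -2.74 in mouse 10 against -3.10 to -3.00, and mouse 10 was the only D1 liver on slide 8. Wt1 in D2 forestomach was 0.086 in mouse 15 against -1.78 to -1.33.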

How the results depend on the processing

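In lung at D1 and D2, in liver and forestomach at all doses and in the comparison of liver with forestomach, 0 markers were called under every alternative run. The median difference of the markers in D3 lung lay between 0.59 and 0.96 over the processing alternatives and between 0.53 and 0.91 when 1 mouse was left out. Markers called between vehicle tissues numbered 3 to 5 for lung and liver, 2 to 4 for lung and forestomach and 4 to 5 for forestomach and liver, counts that include Lrrn4, Upk3b and Upk1b, which were mostly not measured in liver. With mouse as a replicate block, which pairs the tissues of an animal, the numbers were 4, 3 and 5, and 0 in the comparison of the D3 changes. With the processed signals Upk1b in D2 forestomach was -0.26, Wt1 in D3 forestomach 0.17, Lrrn4 in vehicle lung minus forestomach 0.26 and Wt1 there -0.59 (adjusted p = 0.351, limma), and 0 markers differed between lung slides in place of 3. The same signals gave larger differences of Wt1 in liver, -1.002, -0.76 and -1.07 for D1, D2 and D3. They also gave larger differences of Lrrn4, Upk3b and Upk1b between vehicle liver and the other tissues, which rest on liver signal near background and are given no size. With the deposited log2 ratios Upk1b in D2 forestomach was -0.00044, and 4 markers differed between lung slides. Averaged over the 4 doses, lung minus forestomach was 0.91 for Lrrn4, 0.95 for Upk3b and -0.17 for Wt1, and lung minus liver was 1.35 for Wt1. The cause of these changes was not tested. Leaving out 1 mouse moved D2 minus D0 in forestomach from -0.36 to 0.041 for Lrrn4, -0.29 to 0.18 for Upk3b, -0.35 to 0.21 for Upk1b, -0.17 to 0.26 for Msln and -0.52 to 0.020 for Wt1, and in liver from -0.12 to 0.040 for Msln. It moved Lrrn4 in vehicle lung minus forestomach from -0.27 to 0.25, Wt1 in the liver minus forestomach change from -0.33 to 0.10, and the number of markers that differed between lung slides from 1 to 5, counts that include Lrrn4 and Upk3b, which were chosen with slide in the model. Each marker had 1 probe, so no other probe could be tried. Lrrn4 and Upk1b were not well above background in liver, where changes with dose could not be measured.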
